A study of Homo sapiens with 4 samples.

Results

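JARID2 and 9 subunits of Polycomb repressive complex 2 (PRC2) were followed at the transcript level in MDA-MB-231, a human breast cancer line with mesenchymal features. The 10 genes, EZH2, EZH1, EED, SUZ12, RBBP4, RBBP7, JARID2, AEBP2, MTF2 and PHF19, were taken by name from the 25133 rows with a gene symbol, and each matched 1 row. The control cells (genotype given as WT, treatment shSCR) carried a scrambled short hairpin after lentiviral infection, and the knockdown cells (shJARID2) a hairpin directed at JARID2. All libraries thus came from infected cells of 1 line. Each group had 2 libraries. Whether the replicates were separate cultures is not stated in the labels, so the p-values reflect the spread among these 4 libraries alone, which may be technical. The sources used here do not give the hairpin sequence, the number of hairpins, the selection or the time after infection.

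PRC2 methylates lysine 27 of histone H3, a mark of silenced developmental genes. Its core consists of a catalytic subunit (EZH2 or its homologue EZH1), EED, which binds the methylated product, and the scaffold SUZ12, joined by a histone-binding WD40 protein (RBBP4 or RBBP7). Accessory subunits define alternative forms: JARID2 and AEBP2 belong to PRC2.2, and the Polycomb-like proteins MTF2, PHF19 and PHF1, with EPOP, to PRC2.1. EZH2 and EED are known targets of E2F transcription factors, and EZH2 is often abundant in proliferating and in cancer cells.

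A promoter each of EZH2, EED, SUZ12, AEBP2, MTF2 and the knockdown target JARID2 is shown first. These genes were chosen for display with the changes below known. Each sequence is 300 bases from RefSeq on GRCh38.p14, running from 250 bases before the annotated start to 50 bases from it, in the gene's direction. Capitals mark 2 motifs: the E2F-type letters TTTCCCGC, TTTCGCGC, TTTGCCGC or TTTGGCGC, and the letters CCAAT bound by NF-Y. Both strands were searched, so matches on the other strand appear as reverse complements, and no E2F-type match overlapped a CCAAT match.
EZH2 promoter, chr7:148884242-148884541, - strand: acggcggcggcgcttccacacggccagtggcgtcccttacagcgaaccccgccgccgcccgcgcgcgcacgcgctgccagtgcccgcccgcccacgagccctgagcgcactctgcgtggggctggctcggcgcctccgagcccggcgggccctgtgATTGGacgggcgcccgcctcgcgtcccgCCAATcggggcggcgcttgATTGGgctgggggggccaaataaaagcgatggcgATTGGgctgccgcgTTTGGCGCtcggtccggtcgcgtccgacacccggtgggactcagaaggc
EED promoter, chr11:86244503-86244802, + strand: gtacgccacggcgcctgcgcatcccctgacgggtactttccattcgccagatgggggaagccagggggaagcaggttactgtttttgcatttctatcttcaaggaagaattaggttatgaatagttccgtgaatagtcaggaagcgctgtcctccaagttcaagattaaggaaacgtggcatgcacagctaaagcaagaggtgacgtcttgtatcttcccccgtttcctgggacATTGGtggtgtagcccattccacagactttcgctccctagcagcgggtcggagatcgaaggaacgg
SUZ12 promoter, chr17:31936757-31937056, + strand: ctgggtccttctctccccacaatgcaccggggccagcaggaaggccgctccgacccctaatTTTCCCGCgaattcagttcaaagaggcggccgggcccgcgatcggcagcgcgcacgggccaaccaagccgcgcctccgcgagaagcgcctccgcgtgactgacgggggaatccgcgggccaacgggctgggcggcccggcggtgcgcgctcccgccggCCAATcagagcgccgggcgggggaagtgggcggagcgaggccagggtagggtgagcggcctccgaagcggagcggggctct
AEBP2 promoter, chr12:19440349-19440648, + strand: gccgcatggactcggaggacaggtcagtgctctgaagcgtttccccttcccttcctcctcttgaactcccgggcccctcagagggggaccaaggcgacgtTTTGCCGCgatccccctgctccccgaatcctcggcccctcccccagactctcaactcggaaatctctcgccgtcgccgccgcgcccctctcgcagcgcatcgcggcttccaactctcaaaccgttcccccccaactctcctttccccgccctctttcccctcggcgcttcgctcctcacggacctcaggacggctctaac
MTF2 promoter, chr1:93079033-93079332, + strand: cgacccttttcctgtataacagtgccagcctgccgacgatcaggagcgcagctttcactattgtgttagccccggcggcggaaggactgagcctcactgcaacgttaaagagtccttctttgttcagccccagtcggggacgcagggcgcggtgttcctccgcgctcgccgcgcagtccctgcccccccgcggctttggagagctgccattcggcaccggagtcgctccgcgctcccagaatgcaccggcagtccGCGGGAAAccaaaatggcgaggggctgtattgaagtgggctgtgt
JARID2 promoter, chr6:15245819-15246118, + strand: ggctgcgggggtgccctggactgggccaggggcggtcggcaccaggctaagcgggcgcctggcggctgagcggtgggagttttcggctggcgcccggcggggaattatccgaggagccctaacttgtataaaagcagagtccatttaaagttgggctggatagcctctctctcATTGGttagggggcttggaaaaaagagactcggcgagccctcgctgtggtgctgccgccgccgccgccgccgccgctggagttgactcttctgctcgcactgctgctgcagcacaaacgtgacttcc

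All 10 genes had an entry in the promoter table, with 15 promoters among them. An E2F-type match was found in a promoter of 6 of the 10 genes (EZH2, EZH1, SUZ12, AEBP2, MTF2 and PHF19), whereas 3.99% of the 27305 genes and 3.31% of the 35116 promoters in the table held one. In the EZH2 promoter shown, the match began 1 base after the start, and the same promoter held 4 CCAAT matches between 94 and 13 bases before it, at -94, -66, -47 and -13. EZH2 and JARID2 each had another promoter in the table, not shown, that held neither motif. The SUZ12 match lay at -189, that of AEBP2 at -150 and that of MTF2 at 5. CCAAT was present in a promoter of 7 of the 10 genes, against 39.7% of genes in the table. The 15 promoters of the 10 genes held 16 to 54 CpG, against a median of 14 over all promoters. The background shares were not matched for this. EZH2, EZH1 and PHF19 held an E2F-type match and were not called higher as measured below. EED and RBBP7 were called higher as measured and held none. These are letter matches in a fixed window and were not tested as binding sites. A link between matches and changes was not tested.

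Levels are deposited FPKM, in which a gene's fragments are divided by its length and by the library's fragment total. This unit puts levels of different genes on a common scale, but only roughly. The lengths that fitted the values were those of all annotated exons of a gene, not of the transcripts expressed. Comparisons between genes below are of listed FPKM. Steps between low FPKM values gave depths of about 15500000 and 16200000 reads in shSCR replicates 1 and 2, and about 13000000 and 12800000 in shJARID2 replicates 1 and 2. The smallest count behind a value of the 10 genes was 301 reads, and the counting error was at most 5.76% of a value. Each change is a log2 difference, shJARID2 minus shSCR, of FPKM + 1, a scale that makes changes of low genes look smaller than they are. It was tested with limma over 12455 genes with a mean of at least 1 FPKM. A gene was called at a Benjamini-Hochberg adjusted p below 0.05. All 10 genes passed this filter. Changes over the whole transcriptome followed transcript GC content (Spearman's rho -0.72 across 10430 tested protein-coding genes, which are not independent replicates), so a value with that trend removed from each library is given beside each measured one and called GC-corrected.

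The cell line's markers were mixed. CD44 (68.9 and 69.1 FPKM in shSCR, 77.8 and 79.7 in shJARID2) and AXL (393 and 417, then 167 and 186) were abundant, whereas ESR1, PGR and CDH1 were at most 0.203 FPKM in any library. VIM, a defining mesenchymal gene, was listed at 3.54 and 4.20 FPKM in shSCR, and at 2.096 and 2.77 in shJARID2. SPARC was listed at 0.0808 to 0.144, and whether such low listed values mean low expression was not tested. CAV1 (101 and 99.0, then 205 and 186), LGALS1 (237 and 278, then 370 and 329) and S100A4 (5.10 and 4.34, then 9.87 and 7.54) were higher in shJARID2. FN1 was lower (27.8 and 28.9, then 25.5 and 25.1). Of 7 mesenchymal markers tested, 4 were called higher and 3 lower, and after GC correction 3 and 1. Summed over 6 leukocyte markers the level was 0.327 to 0.674 FPKM per library, and over 5 endothelial markers 0.849 to 1.76, with no marker at 0 in all 4 libraries. No gene of these last 2 lists passed the filter. Of 8 luminal epithelial markers 4 passed it, and the list's summed level was lower in shJARID2 (31.5 and 33.8 FPKM in shSCR, 19.8 and 21.7 in shJARID2), with FOXA1, KRT8 and KRT18 lower and EPCAM higher. After GC correction KRT8 was lower and EPCAM higher, whereas KRT18 (-0.33) and FOXA1 (0.17) did not pass, and the list's median went from -0.59 to -0.079. The part of this shift in the changes of PRC2 genes was not tested.

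Depletion of JARID2 transcript was accompanied by higher transcript levels of EED, SUZ12, RBBP7, AEBP2 and MTF2 and by a lower level of PHF19. EZH2, EZH1 and RBBP4 did not pass the test. Of the 10 genes, 5 rose and 2 fell, JARID2 among the latter, and the median log2 fold change was 0.26 against -0.018 over all tested genes. This count stands against a background in which 59.7% of tested genes were called, 28.0% higher and 31.6% lower. The groups did not overlap for any of the 10 genes, but neither did they for 82.9% of tested genes. After GC correction 44.2% of 12039 genes were called, 22.7% higher and 21.4% lower. Of the 10 genes, 4 were then higher (SUZ12, RBBP7, AEBP2 and MTF2) and 2 lower (JARID2 and RBBP4). EED and PHF19 no longer passed. The median of the 10 was 0.086.

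**Figure D1:**
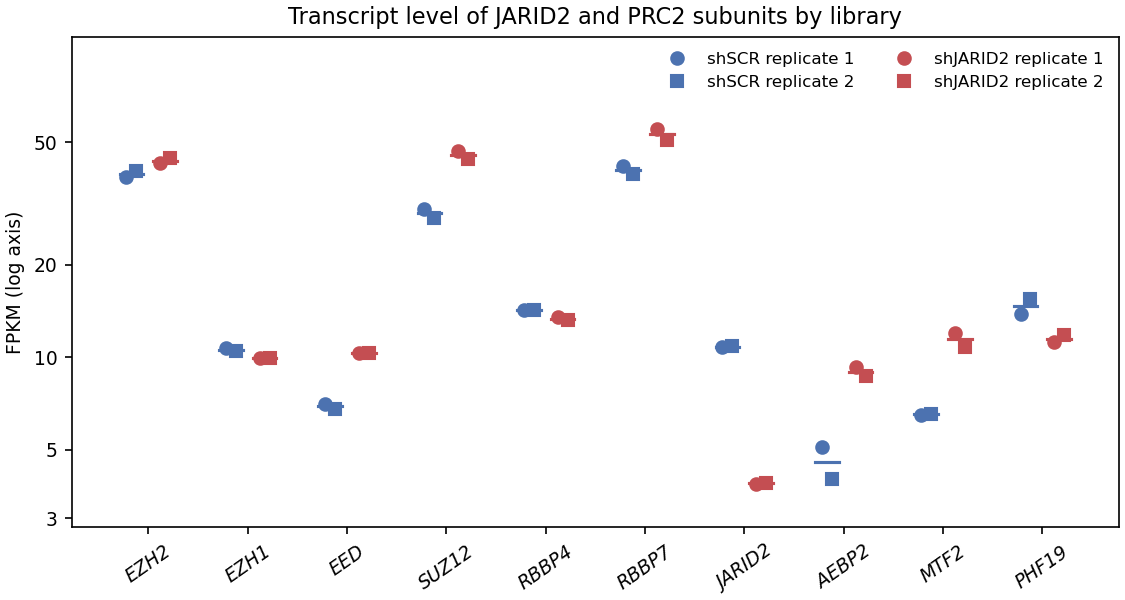
FPKM (log axis) of the 10 genes in each library, with circles for replicate 1, squares for replicate 2 and a line at each group mean. JARID2 sits at 10.8 in both shSCR libraries and at 3.88 and 3.91 in the shJARID2 libraries, while SUZ12, EED, AEBP2, MTF2 and RBBP7 lie higher in shJARID2.

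JARID2, the hairpin's target, was at 10.8 FPKM in both shSCR libraries (1003 and 1056 reads) and at 3.88 and 3.91 FPKM in shJARID2 replicates 1 and 2 (302 and 301 reads). Knockdown libraries were thus uniformly low, and the difference between groups exceeded that between replicates of either group. The mean went from 10.8 ± 0.0611 to 3.89 ± 0.0222 FPKM (SD, n = 2), a fall of 64.0% that left 0.360 of the control level. In pooled cells, fewer cells with the transcript and less transcript per cell cannot be told apart. The log2 fold change was -1.27 (SE 0.059, limma adjusted p = 0.0014) and -1.15 after GC correction (adjusted p = 0.0017). Of the 12455 tested genes, 324 (2.60%) had a lower log2 fold change. JARID2 occupies bases 15246296 to 15522040 of chromosome 6 (GRCh38, + strand; gene ID 3720), and its exons, 6015 bases in all, overlap no exon of another GENCODE gene.

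Genes whose profile over the 4 libraries was among the most like that of JARID2 were LONP1, NDRG1, PPIB and MAPK8IP3. Likeness was the root mean square difference in log2(FPKM + 1) after subtracting each gene's shSCR mean, and it was 0.023 for LONP1 and 0.032 for MAPK8IP3 among 7330 candidates with a mean of at least 5 FPKM. LONP1, a mitochondrial protease, went from 25.5 and 26.6 FPKM in the controls to 9.93 and 10.2 in the knockdown, and its groups did not overlap. After GC correction the fall of JARID2 was -1.15, and those of these 4 genes ranged from -0.86 for PPIB to -0.46 for MAPK8IP3.

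The catalytic subunits did not pass the test. EZH2 measured 38.6 and 40.2 FPKM in the controls, against 42.8 and 44.2 in the knockdown. The lowest knockdown library lay above the highest control library, by a margin of the same order as the gap between replicates. The log2 fold change of EZH2 was 0.14 (SE 0.046, limma adjusted p = 0.054), and -0.057 after GC correction (adjusted p = 0.38). EZH1, the homologue that predominates in many non-dividing tissues, measured 10.7 and 10.5 FPKM in the controls, against 9.92 and 9.91 in the knockdown. Its log2 fold change was -0.085 (SE 0.052, limma adjusted p = 0.22), and -0.13 after GC correction (adjusted p = 0.086). EZH2 (chromosome 7, 148807383 to 148884321, - strand) had the higher FPKM of these homologues in every library, with an EZH1 to EZH2 ratio of 0.277 and 0.261 in shSCR and 0.232 and 0.224 in shJARID2.

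EED and SUZ12, which EZH2 needs for activity, were both higher in shJARID2. EED (chromosome 11, 86244544 to 86278813, + strand) measured 7.05 and 6.78 FPKM in shSCR and 10.3 in both shJARID2 libraries. SUZ12 (chromosome 17, 31937018 to 32001045, + strand) measured 30.4 and 28.4 FPKM in the controls, against 46.6 and 44.1 in the knockdown. For both genes the groups were far apart compared with their replicates. EED rose by 0.52 (SE 0.057, limma adjusted p = 0.0029) and SUZ12 by 0.61 (SE 0.057, adjusted p = 0.0021) on the log2 scale. After GC correction SUZ12 was still higher (0.20, limma adjusted p = 0.016), whereas EED no longer passed (0.055, adjusted p = 0.43). EED and SUZ12 transcripts are low in GC, at 36.9% and 38.4%, and their ratio overlapped between groups: EED was 0.232 and 0.239 of SUZ12 in shSCR and 0.221 and 0.234 in shJARID2. SUZ12 has 1 annotated pseudogene copy, and the rule for reads with several matches is not given, so a share of its reads is uncertain.

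The histone-binding subunits RBBP4 and RBBP7, which PRC2 shares with other chromatin complexes, differed from each other. RBBP7 (chromosome X, 16839283 to 16870414, - strand) measured 41.8 and 39.5 FPKM in the controls, against 55.0 and 50.9 in the knockdown. It rose by 0.37 (SE 0.059, limma adjusted p = 0.0073), and by 0.18 after GC correction (adjusted p = 0.043). RBBP4 (chromosome 1, 32651142 to 32686211, + strand) measured 14.3 and 14.2 FPKM in the controls, against 13.5 and 13.2 in the knockdown. Its log2 fold change of -0.085 did not pass (SE 0.048, limma adjusted p = 0.19), but after GC correction it was -0.26 and did (adjusted p = 0.010). The RBBP4 to RBBP7 ratio went from 0.350 ± 0.0130 to 0.253 ± 0.00956 (SD, n = 2). Their transcripts have nearly the same GC content, 45.4% and 44.9%. RBBP4 has 6 annotated pseudogene copies, of which RBBP4P1 and RBBP4P2 were at 1.29 to 2.60 FPKM, and 18.0% of its exon bases are shared with SYNC, so part of its reads may belong elsewhere.

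The PRC2.2 subunit AEBP2, a zinc finger protein, rose, with a larger log2 fold change than any other of the 10 genes when all 4 libraries were used. Without shSCR replicate 2 it was 0.71, and that of MTF2 0.73. AEBP2 (chromosome 12, 19404045 to 19720801, + strand) measured 5.10 and 4.03 FPKM in the controls, against 9.29 and 8.66 in the knockdown. On the log2 scale its control replicates were the furthest apart of the 10 genes (0.28), but both lay below the knockdown libraries. The mean went from 4.56 ± 0.752 to 8.98 ± 0.446 FPKM (SD, n = 2), a ratio of 1.97. The log2 fold change was 0.85 (SE 0.12, limma adjusted p = 0.0047) and 0.53 after GC correction (adjusted p = 0.015). Because JARID2 fell while AEBP2 rose, the ratio of JARID2 to AEBP2 inverted, from 2.11 and 2.69 in control libraries to 0.417 and 0.451 in knockdown libraries. Both belong to PRC2.2, so this is not a ratio of alternative subunits. The sum of JARID2 and AEBP2 went from 15.4 ± 0.690 to 12.9 ± 0.424 FPKM (SD, n = 2). JARID2 contributed 70.4% of it in shSCR and 30.3% in shJARID2.

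The Polycomb-like subunits MTF2 and PHF19, which bind unmethylated CpG-rich DNA and recruit PRC2.1, changed in opposite directions as measured. MTF2 (chromosome 1, 93079235 to 93139081, + strand) measured 6.48 and 6.56 FPKM in the controls, against 12.02 and 10.83 in the knockdown. It rose by 0.72 (SE 0.072, limma adjusted p = 0.0023), and by 0.40 after GC correction (adjusted p = 0.010). PHF19 (chromosome 9, 120855652 to 120894896, - strand) measured 13.8 and 15.4 FPKM in the controls, against 11.2 and 11.8 in the knockdown. PHF19 fell by 0.32 on the log2 scale (SE 0.073, limma adjusted p = 0.020), a call lost without shSCR replicate 2 (-0.25, adjusted p = 0.094) and without shJARID2 replicate 1 (-0.29, adjusted p = 0.073). After GC correction its sign turned, to 0.12 (limma adjusted p = 0.14). In shSCR MTF2 stood at 0.468 and 0.426 of PHF19, and in shJARID2 at 1.08 and 0.918, so that the paralogues had about equal FPKM in the knockdown. MTF2 and PHF19 transcripts differ widely in GC content, at 40.8% and 56.9%. The third Polycomb-like gene, PHF1, was listed at 0.304 to 0.429 FPKM and was not tested.

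**Figure D2:**
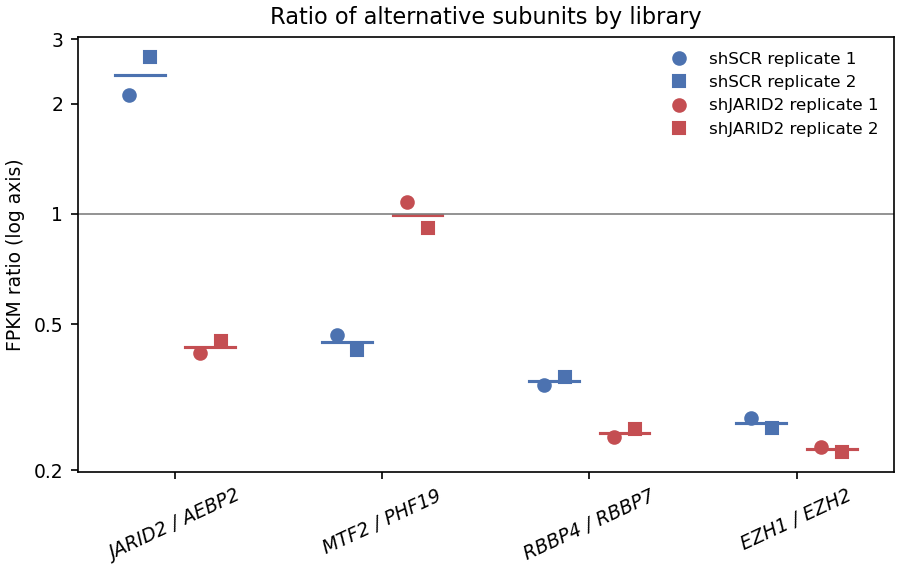
FPKM ratio (log axis) of paired subunits within each library, with circles for replicate 1 and squares for replicate 2. A line marks each group mean and a grey line equality. JARID2 and AEBP2 both belong to PRC2.2, whereas the other pairs are alternative subunits. JARID2 to AEBP2 crosses from above 2 to below 0.5, and MTF2 to PHF19 climbs from 0.447 to 0.996, while RBBP4 to RBBP7 and EZH1 to EZH2 fall by smaller steps.

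Across the 10 genes the measured change followed transcript GC content. The 4 genes with the lowest GC content, EED, SUZ12, MTF2 and AEBP2 (36.9% to 41.1%), had the 4 highest log2 fold changes, and PHF19, with the highest (56.9%), was lower. Spearman's rho of log2 fold change with GC content was -0.84 over the 10 genes and -0.80 over the 9 without JARID2. With GC-corrected changes it was still -0.47 over these 9. The values are given as a description, since the genes share the same 4 libraries. Between genes of similar GC content the ratios were mixed. EED to SUZ12 and AEBP2 to MTF2 (41.1% and 40.8%) overlapped between groups, the latter at 0.787 and 0.615 in shSCR and 0.773 and 0.800 in shJARID2. RBBP4 to RBBP7, RBBP4 to EZH2 and RBBP7 to EZH2 (genes of 44.7% to 45.4% GC) did not overlap. For RBBP7 to EZH2 (1.08 and 0.983 in shSCR, 1.28 and 1.15 in shJARID2) the gap was smaller than between replicates. With 2 libraries per group non-overlap says little, and FPKM of 82.9% of tested genes did not overlap either. The part of GC content in the changes was measured only through the correction; its origin was not tested.

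**Figure D3:**
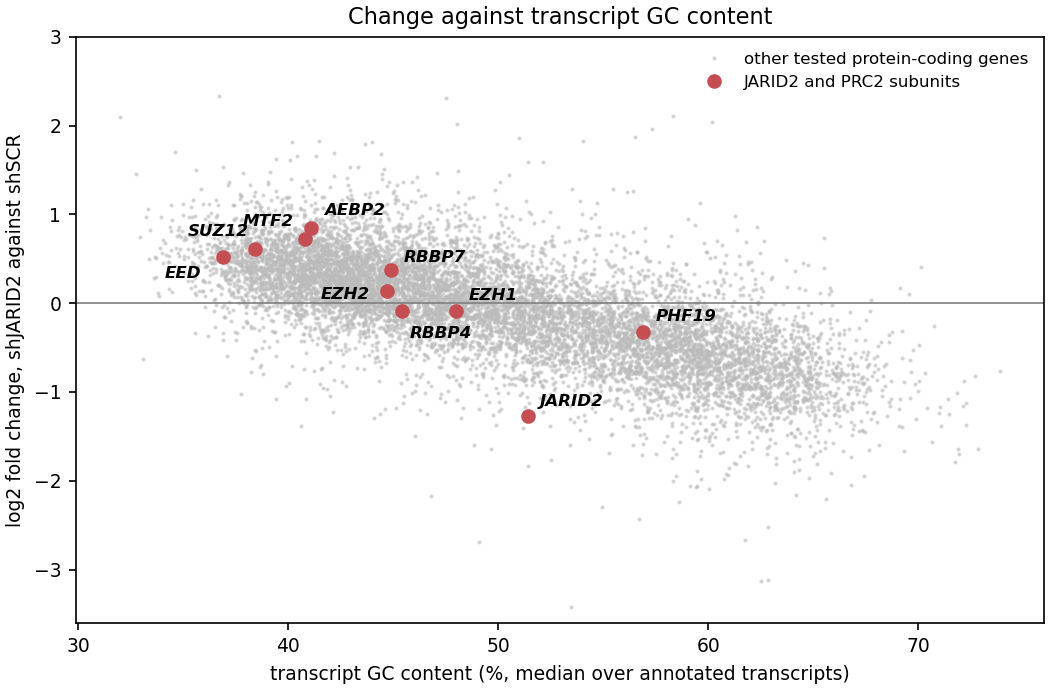
Log2 fold change of shJARID2 against shSCR (vertical) against transcript GC content in percent (horizontal) for tested protein-coding genes in grey and the 10 genes in red. The grey cloud slopes downward; EED, SUZ12, MTF2 and AEBP2 lie at its low-GC end, and JARID2, at 51.4% GC, lies at -1.27, below the centre of the cloud at that GC content.

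**Figure D4:**
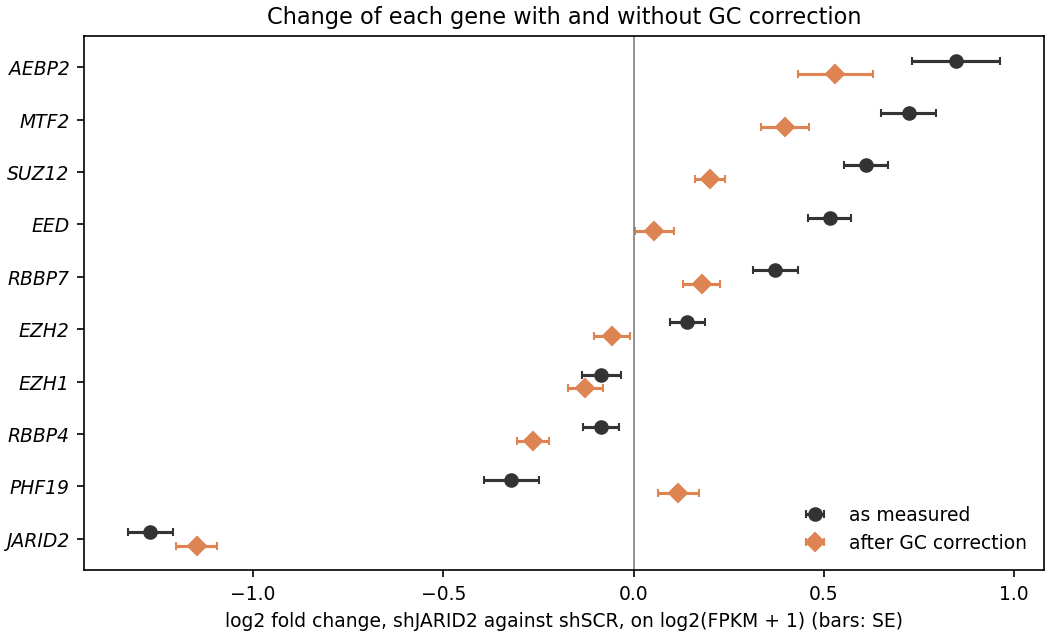
Log2 fold change of each gene (horizontal, bars are SE) as measured (circles) and after GC correction (diamonds). The correction moves EED from 0.52 to 0.055 and PHF19 from -0.32 to 0.12, and leaves JARID2, AEBP2, MTF2, SUZ12 and RBBP7 on their side of zero.

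Levels were then set against the core. In shSCR the order of mean level ran RBBP7, EZH2, SUZ12, PHF19, RBBP4, JARID2, EZH1, EED, MTF2 and AEBP2. Neighbours whose libraries overlapped were RBBP7 with EZH2 and PHF19 with RBBP4. In shJARID2 the order was RBBP7, SUZ12, EZH2, RBBP4, PHF19, MTF2, EED, EZH1, AEBP2 and JARID2, with overlap of SUZ12 with EZH2 and of PHF19 with MTF2. JARID2 thus went from the 6th place to the last. FPKM of EZH2 was 5.70 ± 0.325 times that of EED in shSCR and 4.22 ± 0.103 times in shJARID2 (SD, n = 2), and SUZ12 was 0.747 ± 0.0577 and 1.04 ± 0.0651 of EZH2.

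JARID2 transcript was 0.279 and 0.270 of EZH2 with the scrambled hairpin, against 0.0906 and 0.0883 in the knockdown. Against EED the ratio of JARID2 went from 1.53 and 1.60 to 0.376 and 0.379. Against SUZ12 it went from 0.354 and 0.382 to 0.0832 and 0.0886. In FPKM, JARID2 therefore exceeded EED in the control libraries and stood well below each of the 3 core genes in the knockdown libraries. Relative to the mean FPKM of EZH2, EED and SUZ12, JARID2 was at 0.428 ± 0.00502 in shSCR and 0.118 ± 0.00158 in shJARID2 (SD, n = 2). JARID2 and AEBP2 together went from 0.609 ± 0.0237 to 0.389 ± 0.00980 of that mean, and MTF2, PHF19 and PHF1 together from 0.854 ± 0.0534 to 0.702 ± 0.00741. These ratios and sums were not GC-corrected. Relative to the core, the log2 change of PHF19 was -0.74 as measured and 0.051 after GC correction, and that of MTF2 0.30 and 0.33. The fall of the MTF2, PHF19 and PHF1 sum is thus one of measured FPKM only.

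**Figure D5:**
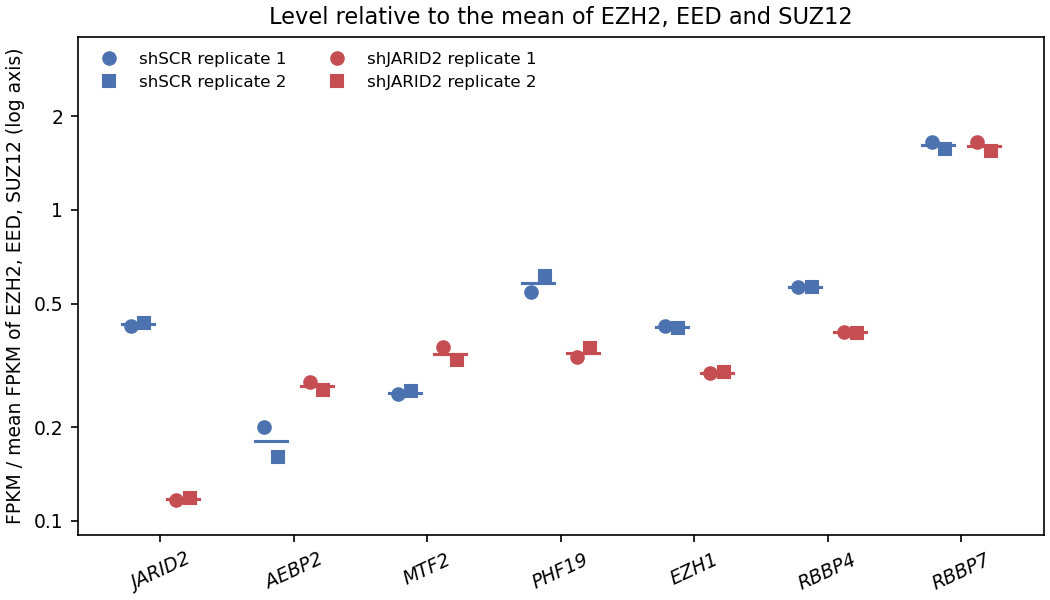
FPKM of each gene outside the core divided by the mean FPKM of EZH2, EED and SUZ12 in the same library (log axis), with circles for replicate 1, squares for replicate 2 and a line at each group mean. JARID2 drops from 0.428 to 0.118, AEBP2 and MTF2 lie higher in shJARID2, PHF19, EZH1 and RBBP4 lower, and RBBP7 overlaps between groups. The ratios are not GC-corrected.

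The change of each gene relative to the core was tested by subtracting the mean log2(FPKM + 1) of EZH2, EED and SUZ12 in each library (for a core gene, of the other two) from all 12455 genes before the limma fit. All genes then share 1 reference, so their errors are correlated. Since the core itself was higher in shJARID2, this lowered most genes: 66.9% were called, 8.29% higher and 58.6% lower. The median over all tested genes was -0.44. Of the 10 genes, 3 were higher and 5 lower relative to the core, the falls being no more frequent than over all genes. JARID2 was lower by -1.69 on the log2 scale (SE 0.062, limma adjusted p = 5.9e-04), and PHF19 by -0.74 (SE 0.081, adjusted p = 0.0019). EZH1 and RBBP4 were each at -0.51 (limma adjusted p = 0.0016 and 0.0013), and EZH2 was at -0.42 against EED and SUZ12 (adjusted p = 0.0047). EZH1 and RBBP4 thus lay near the median over all genes, and the value of EZH2 has another reference. AEBP2 (0.43, limma adjusted p = 0.023), MTF2 (0.30, adjusted p = 0.019) and SUZ12 (0.28, adjusted p = 0.017) were the genes higher than their reference. RBBP7 (-0.050, limma adjusted p = 0.44) and EED (0.14, adjusted p = 0.087) did not pass.

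After GC correction 2 genes were higher relative to the core and 4 lower, against 17.3% and 26.5% of all genes (43.9% called in either direction). The median over all genes was -0.066. JARID2 was then at -1.22 (limma adjusted p = 0.0018), RBBP4 at -0.33 (adjusted p = 0.0072), EZH1 at -0.19 (adjusted p = 0.035) and EZH2 at -0.18 (adjusted p = 0.043). AEBP2 (0.46, limma adjusted p = 0.026) and MTF2 (0.33, adjusted p = 0.020) were higher, and SUZ12 (0.20, adjusted p = 0.052) did not pass. The call of PHF19 ended (0.051, limma adjusted p = 0.47). The calls of rises relative to the core were all lost without shSCR replicate 2 and without shJARID2 replicate 1 (0 by limma, with 3 and 2 at an unadjusted p below 0.05), although limma-voom on recovered reads of all libraries gave 4.

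Other genes of the Polycomb pathway were counted by list; those named without a value were named after their values were seen. Of 4 further PRC2 partners found, 3 were tested, of which 2 rose and 1 fell as measured and none passed after GC correction. EPOP, a PRC2.1 subunit, measured 2.97 and 3.65 FPKM in the controls, against 1.49 and 1.13 in the knockdown (-0.90, GC-corrected -0.12), and LCORL, a source of the PRC2.1 subunit PALI2, 4.84 and 4.42, then 7.41 and 7.72 (0.61, GC-corrected 0.099). In the GC-corrected limma fit 0 of these 3 (EPOP, LCORL and LCOR) passed even at an unadjusted p below 0.05. Of the H3K27 demethylase genes, KDM6B fell as measured (-0.84) but not after GC correction (-0.21), and KDM6A did not pass as measured (-0.043) but was lower after it (-0.33).

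PRC1, which binds the PRC2 mark, and PR-DUB, which removes from histone H2A the ubiquitin that PRC1 adds, were split. Of 20 PRC1 genes tested, 7 rose and 9 fell as measured, and 4 were higher and 4 lower after GC correction. For this and the following lists, the shares over all tested genes were 28.0% higher and 31.6% lower as measured, and 22.7% and 21.4% after GC correction. The corrected PRC1 counts were near those shares. With GC correction genes that were higher included BMI1, PCGF3 and YAF2, and genes that were lower included PCGF5, CBX2, CBX6 and BCOR. BMI1 rose from 11.9 and 11.2 to 28.5 and 26.9 FPKM (1.19, GC-corrected 0.83), and CBX2 fell from 4.02 and 4.67 to 1.005 and 1.126 (-1.37, GC-corrected -0.63). CBX6 (-1.15, GC-corrected -0.56) fell under both measures, and PCGF2 (-0.92, GC-corrected -0.40) only before correction, 45.7% of its exon sequence lying under exons of other genes. Of 10 PR-DUB genes, 2 rose, OGT and KDM1B, and 6 fell (2 and 5 after GC correction), among the latter MBD6 (-1.27, GC-corrected -0.60), FOXK2 (-1.08, GC-corrected -0.71), the catalytic subunit BAP1 (-0.85, GC-corrected -0.33) and HCFC1 (-0.83, GC-corrected -0.21). The medians were -0.25 for PRC1 and -0.36 for PR-DUB, against -0.018 over all tested genes, and after GC correction -0.0024 and -0.16, against 0.00023.

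Partners of RBBP4 and RBBP7 outside PRC2 gave 5 rises and 7 falls among 15 tested (4 and 7 after GC correction), the rises near the share over all genes. MTA1 of the NuRD deacetylase complex (-1.51, GC-corrected -0.84), CHD3 (-0.98, GC-corrected -0.59) and CHAF1A of chromatin assembly factor 1 (-0.88, GC-corrected -0.43) were lower. HDAC2 was higher (0.73, GC-corrected 0.42), as were LIN9 and LIN52 of the MuvB complex. Of the E2F and RB family, 5 of 13 rose and 4 fell (4 and 2 after GC correction), with the measured falls near the share over all genes. E2F1, an activator of S-phase genes, measured 45.4 and 48.4 FPKM in the controls, against 26.8 and 28.1 in the knockdown (-0.75), but its GC-corrected value was -0.027 and did not pass. The other measured changes were falls of E2F2 and E2F4 and rises of TFDP2 and RBL1, and GC correction added TFDP1 (higher) and E2F8 (lower). E2F3 was lower under both measures (-0.14, GC-corrected -0.35). RB1 (0.70, GC-corrected 0.33), E2F5 (0.65, GC-corrected 0.24) and the repressor E2F7 (0.61, GC-corrected 0.44) rose. Of the 3 KDM5 demethylases, relatives of JARID2 in the Jumonji family, 1 fell as measured, KDM5C (-0.68, GC-corrected -0.20), and all 3, KDM5A, KDM5B and KDM5C, were lower after GC correction.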

How the data were processed

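RNA of 4 MDA-MB-231 libraries was sequenced. Per the submitters' processing notes, the tools were Trimmomatic, HISAT2, SAMtools and featureCounts. The sources used here give no versions, genome build, annotation, strand use or rule for multiply mapped reads. Each deposited file holds FPKM, per its header and the labels, in 85553 rows per library, of which 60420 without a symbol (21.1% to 24.5% of all FPKM) were left out.

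FPKM multiplied by GENCODE release 29 exon length (24205 rows matched by symbol) fell on whole reads, with 95.8% to 96.3% of values up to 20 reads within 0.05 of a whole number; this gave the depths and is the reason for GRCh38 coordinates. Replicates differed by more than sampling noise (chi-square per degree of freedom 3.17 and 3.65).

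A count test had been planned only for counts, so log2(FPKM + 1) was fitted with limma 3.58.1 (R 4.3.3; trend; 2 residual and 2.36 prior degrees of freedom; Benjamini-Hochberg adjustment). An exact permutation test of 2 against 2 cannot go below 0.333. GC correction subtracted, per library, a loess fit (span 0.3, degree 2) of deviations from the gene mean on the median GC content of a gene's transcripts. Simulated reads with known changes were also put through the fits. They carried no GC trend, so they do not test how well such a trend is removed.

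The 10 genes and all lists were chosen with earlier results of these data known. Named besides them were, per list, up to 4 called genes with a log2 change of at least 0.5, EPOP, PHF1, KDM6A, KDM6B, BMI1, E2F1, E2F3, and genes most like JARID2 (up to 5, by root mean square difference). Some items are not reported here. Marker genes were tested singly in the same limma fit, but no marker list was tested as a set. FPKM ratios between subunits carry no test. EZHIP was not analysed here.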

Additional observations from a re-analysis of the deposited data

How the results depend on the processing

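Over 15 alternatives (other pseudocount, filters, scalings, limma without trend, limma-voom on recovered reads, GC corrections, a replicate block and each library left out) JARID2 was lower and called, from -1.45 to -1.12. AEBP2, MTF2, SUZ12 and RBBP7 were higher and called in all 15. The other results depended mainly on GC. With GC correction, with the replicate block and GC correction, and with GC and exon length correction, the sign of several values turned. EZH2 was at -0.057, -0.057 and -0.065, PHF19 at 0.12, 0.12 and 0.12, and relative to the core PHF19 at 0.051, 0.051 and 0.080, EED at -0.018, -0.018 and -0.034 and RBBP7 at 0.11, 0.11 and 0.15. EZH2 was called higher under both other scalings (0.16 and 0.17), with limma-voom (0.17) and with the replicate block (0.14). Genes called lower numbered 2582 with GC correction and 2326 with the replicate block and GC correction, against 3941. Genes of the 10 lower relative to the core numbered 2 with GC and exon length correction and 3 with the replicate block and GC correction, against 5. Other pathway genes called higher numbered 13 with GC and exon length correction, against 21.

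With each library left out, 2168 to 3068 genes were higher and 2462 to 3763 lower over all genes; of the 10 genes 1 to 2 were lower, and 0 to 2 higher relative to the core; 19 to 30 other pathway genes were lower (29 with all libraries). Each lowest count was reached without shSCR replicate 2 (for the 10 genes also without shJARID2 replicate 1), and the lone sample left in a group is then assumed to vary like the others. Replicate numbers come from the titles only; same-numbered deviations correlated at 0.029, so the block is not taken as a pairing. The block alone changed no call of the 10 genes as measured other than that of EZH2. With 2 libraries per group, precision is limited by the number of libraries and by counting error, which reached 5.76% of a value; the cause of the GC trend was not tested.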
